A study of Mus musculus with 13 samples.

Results

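Nqo1, Por and 8 genes of the NRF2 redox pathway were followed through mammary glands and HER2/Neu-driven mammary tumors of mice. The 10 genes (Nqo1, Nfe2l2, Keap1, Gclc, Gclm, Hmox1, Txnrd1, Srxn1, Slc7a11 and Por) were taken by symbol from the 24421 genes of the count table, all 10 were found, and all 10 passed the filter on low counts in both fits described here. They were chosen by the part these genes play in quinone reduction and the NRF2 pathway and by measured values, since the Nqo1 levels of recurrent DMAG and primary untreated tumors were already known. So Nqo1 was given no test in any comparison, and the other 9 genes were given none where those groups were set against each other or in the interaction built on them.

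The samples were whole tissue from female transgenic mice (strain label FVB/N-TgN, MMTV-HER2/neu, line 202Mul/J), in which rat HER2/Neu is expressed in breast epithelium from the MMTV promoter. The genotype label of all 13 libraries reads wild type. There were 2 mammary glands and 3 primary tumors from untreated mice, 3 primary tumors from mice given stavudine (STV), 3 tumors that regrew under 17-DMAG (recurrent DMAG), and 2 that regrew under 17-DMAG with stavudine (recurrent DMAG+STV). STV, a nucleoside reverse transcriptase inhibitor, was given in drinking water at 1 mg/mL, about 200 mg/kg a day, from an age of 2 months or from the appearance of tumors. The paper describes the primary STV tumors as having developed in mice on stavudine. For the recurrent DMAG+STV tumors, the sources used here do not say which start applied. The HSP90 inhibitor 17-DMAG was injected IP at 20 mg/kg 3 times a week. Ages at collection are not given in the sources used here, and the labels do not name the animals, so p-values measure the spread between these samples.

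NRF2, the product of Nfe2l2, is a transcription factor that KEAP1 holds at a low level by handing it to a ubiquitin ligase. When oxidants or electrophiles modify KEAP1, NRF2 accumulates, pairs with small MAF proteins and binds antioxidant response elements near genes for quinone reduction, glutathione and thioredoxin. The pathway bears on the drug itself, since 17-DMAG is a benzoquinone ansamycin: NQO1 reduces such quinones to hydroquinones, which bind HSP90 more tightly, while POR, the reductase that feeds electrons to microsomal cytochromes P450, reduces quinones to semiquinones.

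The core of the antioxidant response element, TGACNNNGC, was searched on both strands of the RefSeq promoter windows (GRCm38.p6, 250 bases before to 50 after each start site) to show which of these genes carry it close to their start. Windows were at hand for 8 of the 10 genes, and 4 of the 8 held the motif, against 13.991% of 27025 genes with a window. Nqo1, Keap1, Slc7a11 and Por had windows without these letters, and Gclc and Hmox1 had no entry. The 4 matches are printed 5′ to 3′ on the strand that carries the motif, with the motif in capitals and 10 flanking bases on each side.
Nfe2l2 (chr2:75704885-75704913, minus strand, the strand of the gene): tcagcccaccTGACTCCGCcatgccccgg
Gclm (chr3:122245413-122245441, minus strand, opposite to the gene): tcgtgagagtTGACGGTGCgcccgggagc
Txnrd1 (chr10:82859104-82859132, minus strand, opposite to the gene): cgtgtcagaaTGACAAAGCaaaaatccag
Srxn1 (chr2:152105542-152105570, minus strand, opposite to the gene): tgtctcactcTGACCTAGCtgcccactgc
The Srxn1 match lay just inside the transcript and those of Nfe2l2 and Gclm upstream of the gene. The Txnrd1 match was in 1 of its 3 windows, upstream of the start site of that window but inside the span of the gene given here. A match is a string of letters and was not tested for binding.

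Libraries held 39921388 to 56887708 counts, and the lowest count of any of the 10 genes in any library was 73. Counting error was not set against the spread between tumors gene by gene. Levels are given as CPM, counts scaled by library total and TMM factor, and as RPKM, which also divides by exon length, where genes are compared with each other. Mammary gland 2 stood apart: its 5 milk protein genes summed to 537100 CPM, against 21070 in mammary gland 1 and 4435 to 19700 in the tumors, and its TMM factor was 0.493 against 0.999 to 1.12 elsewhere. Its 4 skeletal muscle genes summed to 1422 CPM, against 3.37 in mammary gland 1 and 0.290 to 1257 in the tumors. Mammary gland 1 stood apart in 4 T cell genes (82.2 CPM, other libraries 1.94 to 7.18) and 3 B cell genes (89.5 CPM, other libraries 0.261 to 1.82). All 5 luminal epithelial genes (Krt8, Krt18, Krt19, Epcam and Cdh1) were detected in all 13 libraries. Krt19 was lower in every tumor, at 0.253 to 41.0 CPM, than in the glands, at 81.3 and 234.5 CPM. The other 4 were higher without overlap in primary untreated tumors than in the glands. Epcam, for example, stood at 1118 to 1236 CPM in these tumors against 655 and 492.9 CPM in the glands. Recurrent DMAG 1 had the highest sum of 4 fibroblast genes (4226 CPM, other tumors 164.9 to 1324) and of 5 macrophage genes (404.3 CPM, other tumors 101.4 to 188.1). In such bulk samples, fewer cells of a type and less RNA per cell cannot be told apart.

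Nqo1 (chr8:107388225-107403206, minus strand, GRCm38) varied more among tumors than any of the other 9 genes, by 30.78-fold between its lowest and highest tumor. That rank rested on primary untreated 2 at 1.57 CPM, since the other tumors lay between 7.99 and 48.3 CPM. Hmox1 came next, with 25.56-fold. Nqo1 stood at 10.4, 1.57 and 10.0 CPM in the 3 primary untreated tumors, at 7.99, 11.9 and 16.9 CPM in the 3 primary STV tumors, at 48.3, 27.9 and 18.1 CPM in the 3 recurrent DMAG tumors, and at 44.6 and 16.3 CPM in the 2 recurrent DMAG+STV tumors. The glands held 14.4 and 5.42 CPM. Each recurrent DMAG tumor was thus above each primary untreated tumor, whereas recurrent DMAG+STV 2 lay just under the highest primary STV tumor. Recurrent DMAG tumors had a mean of 31.4 CPM ± 15.4 (SD, n = 3), recurrent DMAG+STV tumors 30.4 CPM ± 20.0 (SD, n = 2), primary STV tumors 12.2 CPM ± 4.46 (SD, n = 3), glands 9.93 CPM ± 6.38 (SD, n = 2) and primary untreated tumors 7.31 CPM ± 4.97 (SD, n = 3). In this order of means, the values of each group overlapped those of the next. Fitted log2 fold changes, given as a description, were 2.09 (SE 0.69) for recurrent DMAG against primary untreated and 1.32 (SE 0.73) for recurrent DMAG+STV against primary STV tumors. Without primary untreated 2, whose 1.57 CPM was the lowest Nqo1 level of the series, the former was 1.62, and without recurrent DMAG+STV 1 the latter was 0.41.

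**Figure D1:**
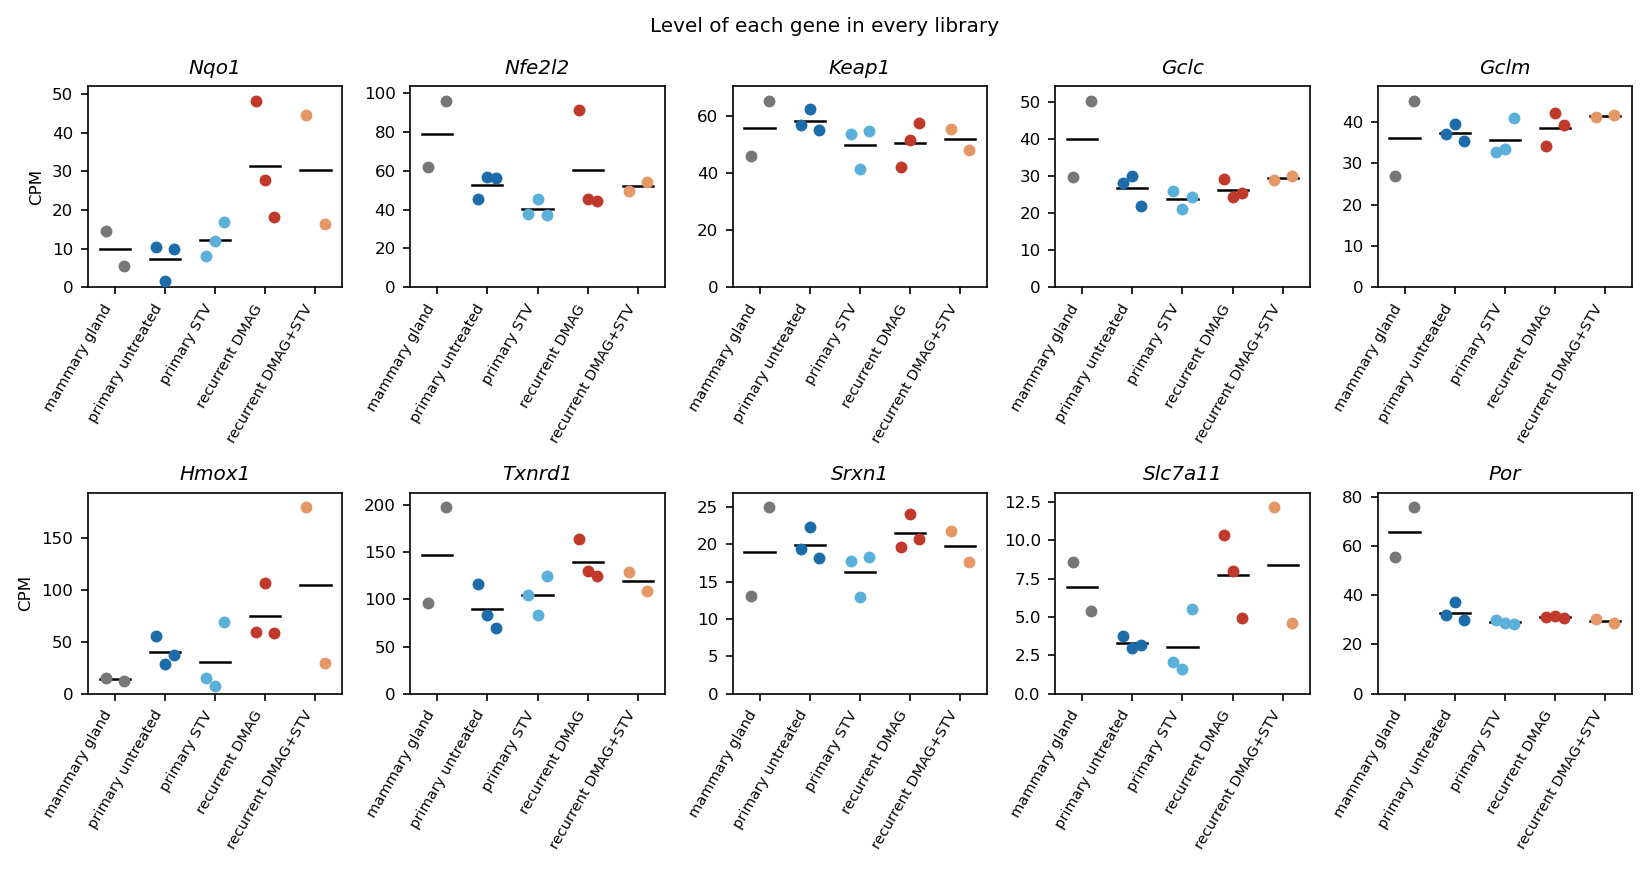
Level of each of the 10 genes in CPM (vertical axes, each from 0) in every library, by group, with 1 point a library and a bar at the group mean. Nqo1, Slc7a11 and Hmox1 spread widely among recurrent tumors, while Por lay between 28.4 and 37.1 CPM in all 11 tumors and higher in both glands.

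The mRNA of the regulators Nfe2l2 and Keap1 had log2 fold changes between -0.41 and 0.38 when tumor groups were compared, both ends from Nfe2l2. Nfe2l2 (chr2:75675513-75704641, minus strand) was at 45.3, 56.9 and 56.1 CPM in primary untreated, 37.5, 45.4 and 37.3 CPM in primary STV, 91.5, 45.6 and 44.5 CPM in recurrent DMAG and 49.7 and 54.3 CPM in recurrent DMAG+STV tumors. Recurrent DMAG 1, the tumor with the most Nqo1, was also the one tumor with a high Nfe2l2 level, and the other 2 recurrent DMAG tumors lay beside the lowest primary untreated tumor. Keap1 (chr9:21229730-21239361, minus strand) ranged from 41.4 to 62.4 CPM over the 11 tumors, with recurrent DMAG 1 second lowest at 41.8 CPM. Its exons share 510 bases with an antisense transcript, for which no count was used here.

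Glutathione genes divided by step. Gclc and Gclm encode the catalytic and modifier subunits of glutamate-cysteine ligase, which makes the first bond of glutathione. Gclc (chr9:77754535-77794485, plus strand) ranged from 21.0 to 30.1 CPM and Gclm (chr3:122245557-122270732, plus strand) from 32.8 to 42.1 CPM over the tumors, a spread of 1.44-fold and 1.29-fold. Slc7a11 (chr3:49892526-50443614, minus strand), the cystine importer that supplies cysteine for glutathione, spread 7.66-fold. It was at 3.74, 2.96 and 3.15 CPM in primary untreated, 2.07, 1.59 and 5.52 CPM in primary STV, 10.3, 8.02 and 4.95 CPM in recurrent DMAG and 12.2 and 4.63 CPM in recurrent DMAG+STV tumors. All 3 recurrent DMAG tumors were above all 3 primary untreated tumors, and primary STV 3 lay above the lower recurrent DMAG+STV tumor. Per length, Slc7a11 was the lowest of the 10 genes, at a mean of 0.386 RPKM over the tumors against 6.03 RPKM for Gclm and 7.00 RPKM for Gclc.

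Of the thioredoxin arm, Txnrd1 (chr10:82833951-82897712, plus strand), the cytosolic thioredoxin reductase, was at 116, 83.7 and 69.4 CPM in primary untreated, 105, 83.1 and 125 CPM in primary STV, 164, 130 and 125 CPM in recurrent DMAG and 129 and 109 CPM in recurrent DMAG+STV tumors. The 3 recurrent DMAG tumors were again all above the 3 primary untreated tumors. Srxn1 (chr2:152105516-152111376, plus strand), which repairs overoxidized peroxiredoxins, stayed between 12.9 and 24.0 CPM over the tumors.

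Hmox1 (chr8:75093621-75100589, plus strand), the inducible heme oxygenase, differed most between tumors of 1 group. It was at 55.9, 28.4 and 37.2 CPM in primary untreated, 15.4, 7.03 and 69.1 CPM in primary STV, 59.7, 107 and 58.7 CPM in recurrent DMAG and 180 and 29.5 CPM in recurrent DMAG+STV tumors, and at 15.2 and 12.6 CPM in the glands. Macrophages also express this gene: the tumor with the highest macrophage sum, recurrent DMAG 1, had 59.7 CPM of Hmox1, whereas recurrent DMAG+STV 1 and 2, with close macrophage sums of 188.1 and 183.8 CPM, had 180 and 29.5 CPM. The part of macrophages in the Hmox1 values was not tested. Over the tumors Hmox1 had the highest mean level per length of the 10 genes, at 33.6 RPKM, followed by Txnrd1 at 15.9, Nfe2l2 at 13.5, Nqo1 at 12.5 and Keap1 at 11.2 RPKM. Por (chr5:135670033-135735326, plus strand) varied little among tumors, at 31.9, 37.1 and 29.9 CPM in primary untreated, 31.0, 31.6 and 30.8 CPM in recurrent DMAG, 29.9, 28.6 and 28.4 CPM in primary STV and 30.4 and 28.6 CPM in recurrent DMAG+STV tumors.

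The comparison of recurrent DMAG with primary untreated tumors asked what differed in tumors that grew back under 17-DMAG. The values are a description for the 10 genes. Nqo1, Slc7a11, Txnrd1 and Hmox1, 4 of the 10, were higher without overlap of the groups, against 7.65% of the 16870 genes tested. The count includes Nqo1, whose levels in these groups were known when the genes were chosen, so it is no test. The log2 fold changes of the 4 genes, in that order, were 2.09 (SE 0.69), 1.23 (SE 0.52), 0.62 (SE 0.22) and 0.87 (SE 0.82). The other 6 genes overlapped, with log2 fold changes from -0.22 for Keap1 to 0.18 for Nfe2l2, and without recurrent DMAG 1 the Nfe2l2 value turned to -0.22. The median over the 10 was 0.14, against -0.01 over all genes. Across all genes edgeR's quasi-likelihood test called 0 at an adjusted p under 0.05 (0%), with 9.69% of genes at an unadjusted p under 0.05. DESeq2 called 61 and limma voom 0. Of 4 fibroblast, 5 luminal epithelial and 4 basal and myoepithelial genes, 1 each was higher without overlap in these recurrent tumors, and 0 of 5 macrophage genes. Of 3 neutrophil genes 2 were, but near the floor: S100a9 was at 0.126 to 1.83 CPM against 0.0797 to 0.122 CPM. The part of these cells in the values was not tested.

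The comparison of recurrent DMAG+STV with primary STV tumors put the same question under stavudine, in libraries that the previous comparison did not use. All 10 genes had a log2 fold change above 0 (without recurrent DMAG+STV 1, Keap1, Hmox1 and Por were under 0), with a median of 0.30 against 0.02 over all genes, and none of the 9 tested genes passed edgeR's quasi-likelihood test. Of the 9, Slc7a11 had the smallest p, at 1.46 on the log2 scale (SE 0.57, adjusted p = 0.461), and 2 of 2 recurrent tumors above 2 of 3 primary ones. Without primary STV 3 it was 2.19, and without recurrent DMAG+STV 1 it was 0.59. Hmox1 was 1.78 higher on that scale (SE 0.91, adjusted p = 0.523), which rested on recurrent DMAG+STV 1, since without that tumor it was -0.06. Nfe2l2, Gclc and Gclm were higher without overlap, with log2 fold changes of 0.38 (SE 0.29), 0.32 (SE 0.17) and 0.22 (SE 0.14) and edgeR adjusted p of 0.643, 0.530 and 0.575. That is 3 of 10 genes, against 17.4% of all genes. Txnrd1 was 0.19 (SE 0.24) and Por 0.03 (SE 0.12) on the log2 scale. Across all genes edgeR called 0 (0%), DESeq2 331 and limma voom 0, with 10.1% of genes at an unadjusted p under 0.05. All 5 macrophage genes were higher without overlap in the recurrent DMAG+STV tumors, with sums of 183.8 to 188.1 CPM against 101.4 to 120.2 CPM. Of 5 luminal epithelial genes 0 were higher without overlap and 1 was lower, Epcam, at 743.5 and 402.2 CPM against 1108 to 1200 CPM. The others overlapped, among them Cdh1 at 446.8 and 345.3 CPM against 290.4 to 410.8 CPM. The part of these cells in the values was not tested.

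**Figure D2:**
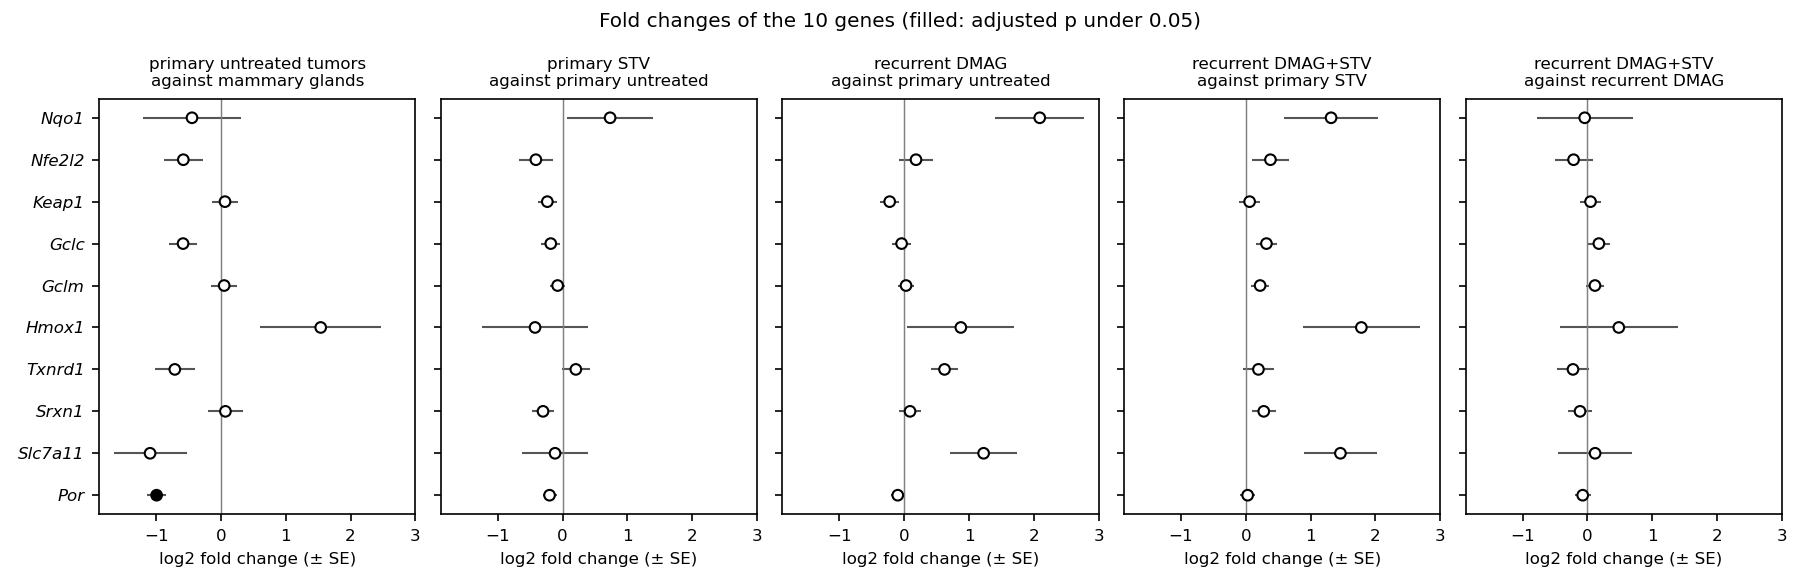
Log2 fold changes of the 10 genes (horizontal axes, points with bars of 1 SE) in 5 comparisons, filled where the adjusted p from edgeR was under 0.05 in a gene that was tested. Nqo1 lay at 2.09 and 1.32 in the recurrence comparisons, and Por against the glands was the only filled point.

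Stavudine alone, in primary STV against primary untreated tumors, left none of the 9 tested genes past edgeR's threshold, and each had an adjusted p of 1.00. Keap1, with a log2 fold change of -0.23 (SE 0.15), and Por, with -0.20 (SE 0.11), were lower without overlap, 2 of 10 genes against 5.83% of all genes. Nqo1 was 0.73 (SE 0.67) higher on the log2 scale, with overlapping groups, and 0.27 higher without primary untreated 2. Hmox1 was at -0.42 (SE 0.82), and without primary STV 3 at -1.86. edgeR called 0 of all genes (0%), DESeq2 17 and limma voom 0, with 3.76% at an unadjusted p under 0.05, and 0 of these 9.

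Recurrent tumors with and without stavudine were set against each other next. Again 0 of 9 passed edgeR's threshold, and 0 had an unadjusted p under 0.05. Nqo1 differed by -0.04 (SE 0.74) on the log2 scale, an SE that leaves room for a difference in either direction, and its value ranged from -0.96 without recurrent DMAG+STV 1 to 0.50 without recurrent DMAG+STV 2. Por, with -0.07 (SE 0.12, adjusted p = 0.947), was lower without overlap, 1 of 10 genes against 10.5% of all genes. Gclc, with 0.18 (SE 0.17, adjusted p = 0.876), and Hmox1, with 0.48 (SE 0.91, adjusted p = 0.953), were on the other side of 0. Across all genes edgeR called 0 (0%), DESeq2 266 and limma voom 0, with 7.84% at an unadjusted p under 0.05. The interaction, the difference of the recurrence effects with and without stavudine, was -0.78 (SE 1.00) for Nqo1, 0.91 (SE 1.22) for Hmox1 and -0.43 (SE 0.32) for Txnrd1 on the log2 scale, as a description. With single tumors left out it ranged from -1.71 to -0.25 for Nqo1 and from -0.95 to 2.34 for Hmox1, with the lowest value of both without recurrent DMAG+STV 1. edgeR called 0 genes for it (0%), DESeq2 189 and limma voom 0, with 7.84% at an unadjusted p under 0.05.

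The comparison with mammary glands set primary untreated tumors beside the tissue they arise in. Por was the 1 gene of the 9 tested that passed. It was at 55.4 and 75.8 CPM in the glands and at 29.9 to 37.1 CPM in the 3 primary untreated tumors, so that every tumor was under both glands. Its level fell to 0.503 of that of the glands, -0.99 on the log2 scale (SE 0.15, adjusted p = 0.0235 by edgeR's quasi-likelihood test). DESeq2 and limma voom also called it, and no other of the 9. Without mammary gland 2 the log2 fold change was -0.65 and the adjusted p 0.0664, without primary untreated 1, 2 or 3 or primary STV 1 the adjusted p lay between 0.0562 and 0.156, and with scaling by library totals alone it was -0.54 with an adjusted p of 0.299. With only the groups compared it was -0.98 (edgeR adjusted p = 0.147) and with the replicate block -0.96 (edgeR adjusted p = 0.0994). Markers of other cells differed in the same direction: the 4 adipocyte genes summed to 212.5 and 258.2 CPM in the glands against 2.63 to 26.2 CPM in these tumors, and all 4 were lower without overlap, as were all 4 fibroblast and all 3 endothelial genes. Of 5 luminal epithelial genes, 4 were higher and 1 was lower without overlap in these tumors. In recurrent DMAG 1, with its high fibroblast sum, Por lay at 31.0 CPM, between the other 2 recurrent DMAG tumors. The part of these cells in the fall of Por was not tested.

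Against the background of 2.11% of 17135 genes called (48 higher and 313 lower), the other 8 tested genes did not pass. Slc7a11, at -1.09 on the log2 scale (SE 0.56, adjusted p = 0.255), and Nfe2l2, at -0.58 (SE 0.30, adjusted p = 0.260), were lower than in the glands without overlap, as was Por, 3 of 10 genes against 20.4% of all genes. Hmox1, at 1.54 (SE 0.93, adjusted p = 0.320), was higher without overlap, 1 of 10 against 18.8%. Txnrd1, at -0.71 (SE 0.31, adjusted p = 0.189), and Gclc, at -0.58 (SE 0.22, adjusted p = 0.145), had unadjusted p of 0.0424 and 0.0232. Both values rested on which gland was kept: without mammary gland 2, the library with the milk protein excess, they were -0.01 and -0.07, and without mammary gland 1 they were -1.10 and -0.88 and passed (adjusted p = 0.0292 and 0.0164 by edgeR, with the lone gland assumed to vary like the tumors). DESeq2 called 2352 genes and limma voom 355 in this comparison, and with single libraries left out edgeR called 0 to 3381, with 0 without primary untreated 2 or 3 and 3381 without mammary gland 1.

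Over the 11 tumors, the levels of Slc7a11, Txnrd1 and Hmox1 went with that of Nqo1 when primary and recurrent tumors were pooled. Pearson's r of log2 CPM was 0.728 for Slc7a11 (Spearman's rho 0.882), 0.714 for Txnrd1 (rho 0.864) and 0.543 for Hmox1 (rho 0.782). Without the 2 tumors farthest from the median of Nqo1, primary untreated 2 and recurrent DMAG 1, r was 0.895, 0.620 and 0.757. Among the 6 primary tumors alone it was 0.166, 0.358 and 0.0987, and no value was computed over the 5 recurrent tumors, which are too few. The remaining genes had r between -0.559 for Por and 0.214 for Nfe2l2 over the 11 tumors. Without primary untreated 2 and recurrent DMAG 1, r was 0.792 for Gclm, 0.596 for Srxn1 and 0.332 for Gclc. It was 0.197 for Nfe2l2, 0.175 for Por and 0.128 for Keap1. The closest pair of the 10 genes was Slc7a11 and Hmox1, with r 0.906 and rho 0.945 over the 11 tumors and r 0.970 among the 6 primary tumors. These are descriptions over libraries that share groups, with no test, and the pair was singled out after its value was seen.

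**Figure D3:**
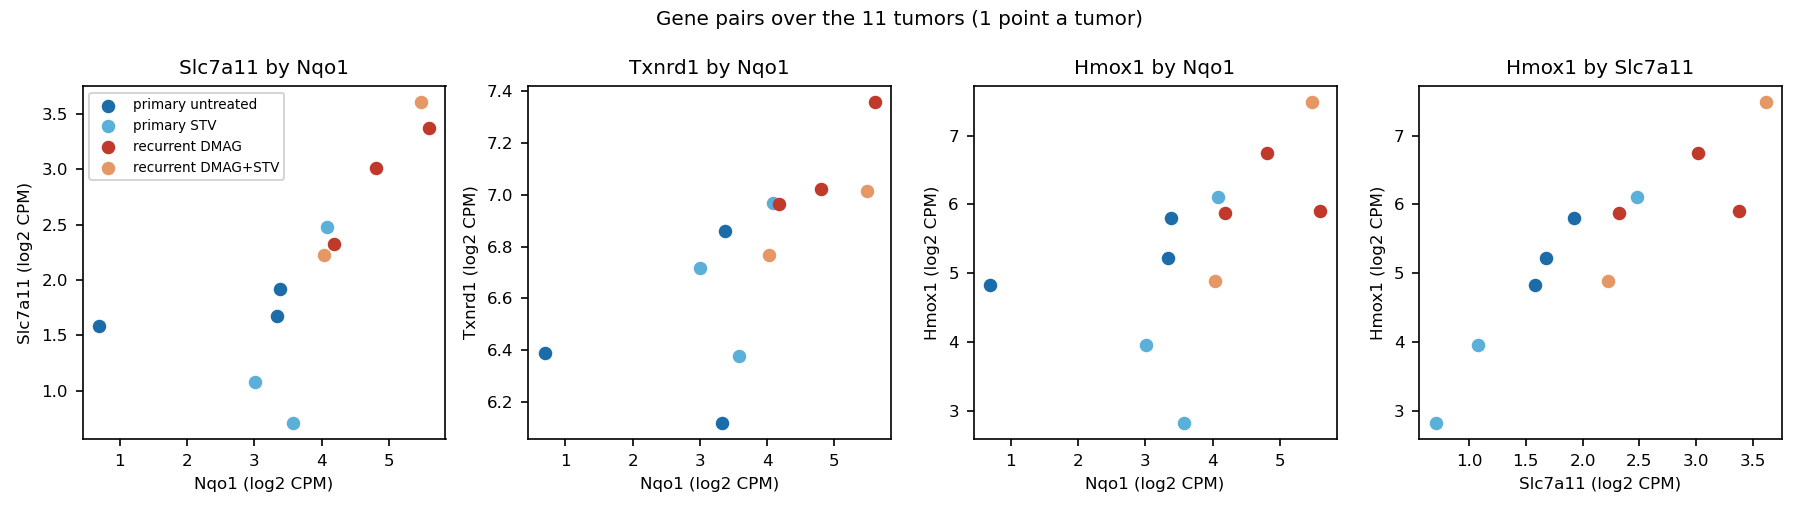
Log2 CPM of gene pairs over the 11 tumors, 1 point a tumor, coloured by group. Slc7a11, Txnrd1 and Hmox1 are plotted against Nqo1, where primary untreated 2 stands alone at the left, and Hmox1 against Slc7a11, where r was 0.906.

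Among the 12692 genes whose log2 CPM averaged 1 or more in the tumors, those most like Nqo1 in pattern, the 10 genes left out, were Prkd3 (r 0.928), Ppp4c (r 0.927), Emp2 (r 0.924), Unc5cl (r 0.923) and Bend5 (r 0.921). Prkd3 and Ppp4c encode a protein kinase D and a phosphatase catalytic subunit, and Emp2 an epithelial membrane protein. Without primary untreated 2 and recurrent DMAG 1 their r was 0.743, 0.860, 0.768, 0.760 and 0.800. Each of the 5 was at its lowest tumor level in primary untreated 2. This follows largely from how they were picked, since Nqo1 was also lowest in that tumor. There Emp2 was at 24.6 CPM against 46.8 to 116 CPM in the other tumors and Prkd3 at 66.2 CPM against 81.4 to 113 CPM.

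The wider pathway was read through 7 lists of 93 genes, of which 91 were tested, with the 10 genes left out. Against the glands, 0 of 91 were called higher and 3 lower by edgeR's quasi-likelihood test, against 2.11% of all genes called, and DESeq2 called 14 of the 91 and limma voom 2. Tkt and Pgd, pentose phosphate enzymes that serve NADPH supply, fell by 1.77 (SE 0.30, adjusted p = 0.0358) and by 2.08 (SE 0.46, adjusted p = 0.0489) on the log2 scale. Ggt1, which splits extracellular glutathione, fell by 4.93 (SE 1.03, adjusted p = 0.0464), with 342.4 CPM in mammary gland 2 and 13.8 CPM in mammary gland 1. Tkt and Pgd were also higher in mammary gland 2, at 827 and 501.3 CPM, than in mammary gland 1, at 322.8 and 122.3 CPM. Without mammary gland 2 none of the 3 passed, with log2 fold changes of -0.84 for Tkt, -0.64 for Pgd and -1.15 for Ggt1, and each call was also lost when any 1 of the primary untreated or primary STV tumors, recurrent DMAG 2 or recurrent DMAG 3 was left out, those of Pgd and Ggt1 also without either recurrent DMAG+STV tumor. The glutathione list had the lowest median, -0.73 over 14 genes, and NADPH supply -0.69 over 10, against -0.02 over all genes. Quinone and flavin reductases, 13 genes with a median of -0.07, included Cbr3 at -1.49 (adjusted p = 0.0717) and Aox1 at -1.57 (adjusted p = 0.0884). The 16 NRF2 regulators had 0 genes at an unadjusted p under 0.05 and a median of 0.03.

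In the tumor comparisons 0 of 91 list genes were called by edgeR. In recurrent DMAG against primary untreated tumors, 12 had an unadjusted p under 0.05, 4 higher and 8 lower, against 9.69% of all genes. On the log2 scale the 4 higher were Ggt1 at 1.47 (SE 0.50), Prdx4 at 0.53 (SE 0.19), Pgd at 0.60 (SE 0.22) and Ftl1 at 0.43 (SE 0.19). The 8 lower included Gpx2 at -2.84 (SE 1.09), Osgin1 at -1.01 (SE 0.30), Me1 at -1.01 (SE 0.43) and Prdx3 at -0.38 (SE 0.16). All of these had an edgeR adjusted p of 0.510. Gpx2 was near the floor, at 0.339 to 4.61 CPM in primary untreated and 0.0420 to 0.695 CPM in recurrent DMAG tumors. The detoxification and transport list, 15 genes tested, had a median of -0.35 and included Gsta3 at -1.71 (SE 0.66). In recurrent DMAG+STV against primary STV tumors, 16 had an unadjusted p under 0.05, 10 higher and 6 lower, against 10.1% of all genes. DESeq2 called 3 of the 91, Tkt, Aox1 and Nqo2, against 331 of 16870 genes. Tkt, at 1.38 (SE 0.15, adjusted p = 0.0854), had the smallest p of all genes, and passed without recurrent DMAG 1 or without recurrent DMAG+STV 1 (adjusted p = 0.0329 and 0.0156 by edgeR). Its CPM were 336.8 and 427.6 against 132.4 to 155.3. Aox1 was at 2.06 (SE 0.49, adjusted p = 0.313), Fth1, the ferritin heavy chain, at 1.35 (SE 0.44, adjusted p = 0.406), Prdx5 at 0.68 (SE 0.20, adjusted p = 0.337), and Nqo2, the quinone reductase related to Nqo1, at -0.71 (SE 0.18, adjusted p = 0.313). Nqo2 stood at 17.4 and 17.2 CPM in these recurrent tumors against 23.9 to 33.5 CPM in primary STV tumors. Under stavudine alone 6 had an unadjusted p under 0.05, 1 higher and 5 lower, against 3.76% of all genes, among them Prdx1 at 0.71 (SE 0.25) and Gstm2 at -2.84 (SE 0.78), both with an edgeR adjusted p of 1.00. Between the recurrent groups 10 did, led by Tkt at 1.17 (SE 0.15, adjusted p = 0.166), and in the interaction 11 did, against 7.84% of all genes in each.

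**Figure D4:**
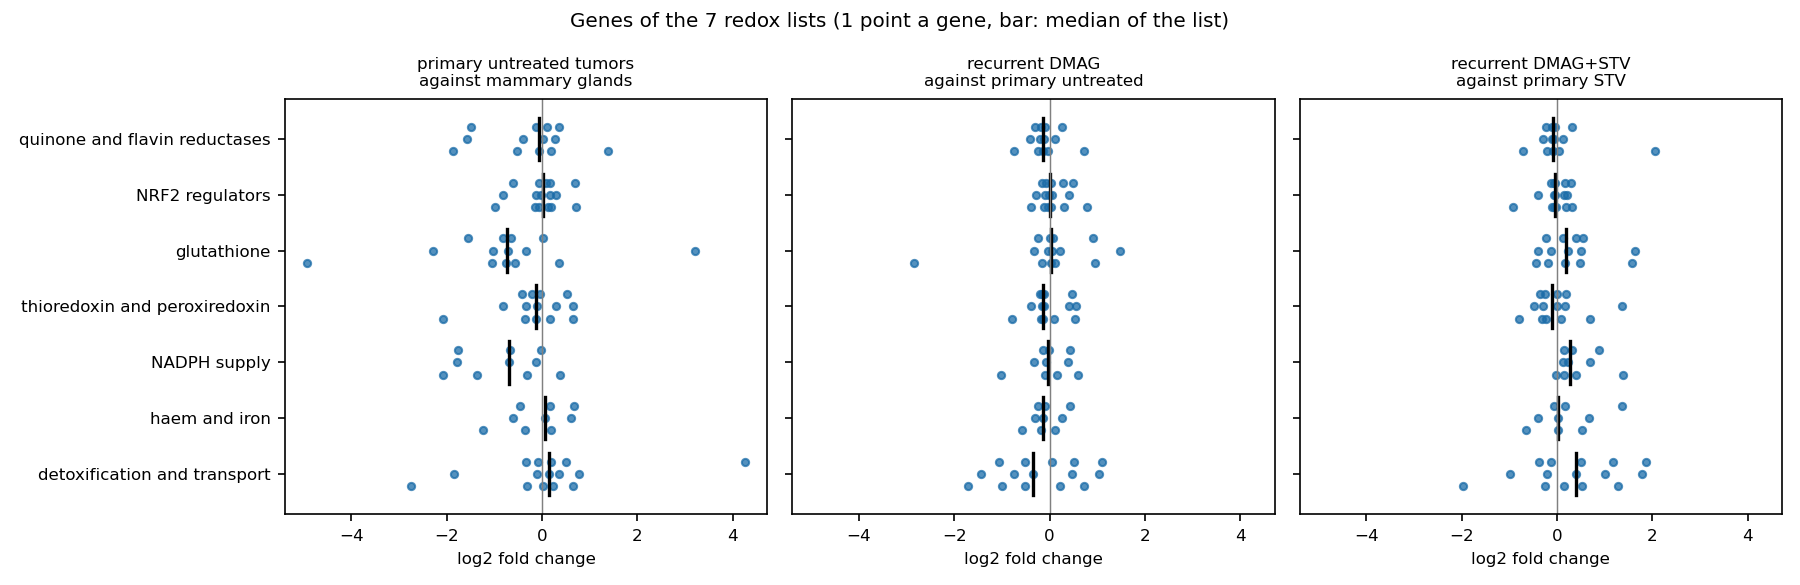
Log2 fold changes (horizontal axes) of the 91 tested genes of 7 redox lists in 3 comparisons, 1 point a gene and a bar at the median of each list. Against the glands the glutathione and NADPH supply medians lay at -0.73 and -0.69, while in the recurrence comparisons the medians lay between -0.35 and 0.40.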

How the data were processed

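Ribosomal RNA was depleted from total RNA of frozen tissue and libraries were made with a dUTP kit that marks strand. The authors aligned reads with STAR to mm10 and counted them per gene with featureCounts (Subread 1.6.2), after bcl2fastq 2.20, and the deposited values are raw counts per gene for the 13 libraries. The strand setting and the handling of multimapping reads are not given in the sources used here.

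The counts were fitted in R 4.3.3 with edgeR 4.0.16 (filterByExpr, TMM, robust quasi-likelihood test, two-sided, Benjamini-Hochberg adjustment over all genes tested, threshold 0.05). The comparison with glands used all 13 libraries (17135 genes) and the tumor comparisons the 11 tumors (16870 genes). SE is the size of the log2 fold change divided by the root of F. CPM are scaled by total and TMM factor, log2 CPM use a prior count of 2, and RPKM use GENCODE M21 exon lengths (GRCm38). DESeq2 1.42.0, limma voom 3.58.1, other scalings, no filter, fits of only the groups compared, a replicate block and each library left out were alternatives. Fits were tested on simulated counts with large planted changes in well-counted genes and less spread between samples than the fits estimated here. That test therefore says little about smaller changes in these data. No within-group pair of libraries agreed within sampling noise. Genes and lists were chosen with earlier results of these data known. Named list genes were those called or, failing that, up to 2 of each list with the smallest p. The marker Ly6g was not used here.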

Additional observations from a re-analysis of the deposited data

How the results depend on the processing

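Most values for the 10 genes kept their direction and side of the threshold under the alternatives run. Calls against the glands depended on the fit: 361 genes in the fit reported, 2352 with DESeq2, 19 with library totals only (which moved the median of all genes by 0.38 on the log2 scale), 0 with only the groups compared, 4 with the replicate block, and 0 to 3381 with single libraries left out (0 without primary untreated 2 or 3, 1360 without recurrent DMAG 1, 3381 without mammary gland 1, where the remaining gland is assumed to vary like the tumors). Por against the glands lost its call with library totals only (-0.54), only the groups compared (-0.98, adjusted p = 0.147 by edgeR) and the replicate block (-0.96, adjusted p = 0.0994 by edgeR), and ranged from -1.16 to -0.65 with libraries left out, without its call when primary untreated 1, 2 or 3, mammary gland 2 or primary STV 1 was missing.

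Of the list genes called against the glands, Tkt ranged from -2.25 to -0.84, Pgd from -2.73 to -0.64 and Ggt1 from -5.84 to -1.15 with libraries left out, and each was lost with library totals only, only the groups compared and the replicate block, Pgd and Ggt1 also with limma voom, and Pgd also with upper-quartile scaling and no filter.

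For STV in primary tumors DESeq2 called 17 genes. For recurrent DMAG against primary untreated DESeq2 called 61 and leaving out libraries 0 to 1. For recurrent DMAG+STV against primary STV DESeq2 called 331, only the groups compared 2, and leaving out libraries 0 to 100 (100 without recurrent DMAG+STV 1, 18 without recurrent DMAG 1). Between the recurrent groups DESeq2 called 266 and leaving out libraries 0 to 141, and for the interaction DESeq2 called 189 and leaving out libraries 0 to 77. Both highest counts came without recurrent DMAG+STV 1, where the remaining tumor is assumed to vary like the other groups. With libraries left out, Nqo1 ranged from 0.41 to 1.86 for recurrent DMAG+STV against primary STV. The causes were not tested.

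Gclc and Txnrd1 passed against the glands without mammary gland 1. Some values under the threshold changed sign with a library left out. Against the glands the ranges were -0.13 to 0.43 for Keap1, -0.24 to 0.56 for Gclm and -0.29 to 0.70 for Srxn1. For STV in primary tumors they were -1.86 to 0.056 for Hmox1 and -0.85 to 0.21 for Slc7a11. For recurrent DMAG+STV against primary STV they were -0.069 to 0.15 for Keap1, -0.057 to 3.21 for Hmox1 and -0.027 to 0.064 for Por, which was -0.0017 with the replicate block. Between the recurrent groups they were -0.40 to 0.21 for Nfe2l2, -0.075 to 0.16 for Keap1, -1.35 to 1.26 for Hmox1, -0.28 to 0.017 for Srxn1 and -0.75 to 0.64 for Slc7a11. Of the values given as a description, those of the interaction ranged from -0.95 to 2.34 for Hmox1, -0.66 to 0.97 for Slc7a11, -0.013 to 0.59 for Nfe2l2, -0.0097 to 0.29 for Srxn1 and -0.0034 to 0.20 for Por, those of recurrent DMAG against primary untreated from -0.22 to 0.38 for Nfe2l2, -0.16 to 0.066 for Gclc, -0.010 to 0.13 for Gclm and -0.17 to 0.0085 for Por, and Nqo1 from -0.89 to 0.46 against the glands and from -0.96 to 0.50 between the recurrent groups.

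Tumors with the same replicate number did not deviate together (median correlation -0.05 over 15 pairs, -0.30 to 0.22, and 2 of 11 tumors correlated best with their own number), so the numbers were not taken to pair them, and apart from the losses given, the block changed no call of the genes named. Groups of 2 to 3 tumors limit these values.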

Other observations

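The genes beside Nqo1 on chr8 were looked at after the low Nqo1 level of primary untreated 2 had been seen. In that tumor, the 8 tested neighbours Nip7, Terf2, Cyb5b, Nfat5, Nob1, Wwp2, Psmd7 and Zfhx3 differed from the mean of the other 2 primary untreated tumors by -0.19 to 0.19 on the log2 scale, against -2.66 for Nqo1. In recurrent DMAG against primary untreated tumors, their log2 fold changes lay between -0.18 and 0.32, against 2.09 for Nqo1. The nearest on each side, Nfat5 and Nob1, stood at 295.8 and 19.6 CPM in primary untreated 2, and at 331.6 and 344.9 CPM and at 20.1 and 18.4 CPM in the other primary untreated tumors.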
